A study of Mus musculus with 6 samples.

Results

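The insulin-like growth factor (IGF) genes followed here are the ligands Igf1 and Igf2, the receptors Igf1r and Igf2r, and the binding proteins Igfbp2 to Igfbp7, 10 of the 43432 genes in the atrial table. They were chosen by name. The table writes gene names in capitals, so case was ignored. Each name matched 1 row, so no measured value entered the choice of rows. The family itself was chosen with earlier results of these data known, so that choice was not blind to the measured values. Atria of C57/Bl6J wild-type mice were compared after 10 weeks on an HFD (high-fat diet, obese mice, n = 3) or on control chow (lean mice, n = 3), begun at 6 weeks of age. Right and left atria were sampled, and their RNA was sequenced. The groups follow the sample titles, which match the column names of the table, whereas in all 6 samples the labelled treatment names the other diet, so every direction below rests on the titles. Samples are called mouse 1 to 3 as the titles number them. No source used here states that each is a separate animal, so the tests measure the spread between these samples.

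IGF1 and IGF2 are small secreted hormones related to insulin. Both act through the receptor tyrosine kinase IGF1R, while IGF2R, which is also the mannose 6-phosphate receptor of lysosomal sorting, takes up IGF2 for degradation. The binding proteins hold IGFs in blood and tissue, and proteases that cut them set the ligand free. In the heart this system is known for its part in myocyte growth and survival.

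Igfbp3, the main IGF carrier of the blood, was 2.28-fold lower in obese than in lean atria and was the only member to pass the test. Igfbp5, a binding protein that also attaches to matrix, had a mean 1.67 times as high in obese atria, but its groups overlapped. The ligands, both receptors and Igfbp4, Igfbp6 and Igfbp7 did not pass, and Igfbp2 was near the limit of detection.

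The 250 bases before the annotated transcription start are given for Igfbp3, the member that changed, and for Igfbp4 and Igfbp5, the highest of the other members by normalized count. Sequences are from RefSeq on GRCm38.p6, read 5′ to 3′ on the strand of the gene, and all 10 members matched an entry, with several starts for Igf2 and Igfbp2. The Igfbp3 stretch is chr11:7213924-7214173 on the minus strand, that of Igfbp4 chr11:99040994-99041243 on the plus strand and that of Igfbp5 chr1:72874866-72875115 on the minus strand. Capitals mark the TATA-like letters TATANA, searched on both strands with N as any base and chosen after these sequences were read.
Igfbp3: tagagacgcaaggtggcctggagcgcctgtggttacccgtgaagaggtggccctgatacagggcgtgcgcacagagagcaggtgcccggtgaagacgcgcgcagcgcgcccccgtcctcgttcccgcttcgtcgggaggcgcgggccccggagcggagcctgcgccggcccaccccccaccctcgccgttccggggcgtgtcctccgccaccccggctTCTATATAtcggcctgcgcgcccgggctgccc
Igfbp4: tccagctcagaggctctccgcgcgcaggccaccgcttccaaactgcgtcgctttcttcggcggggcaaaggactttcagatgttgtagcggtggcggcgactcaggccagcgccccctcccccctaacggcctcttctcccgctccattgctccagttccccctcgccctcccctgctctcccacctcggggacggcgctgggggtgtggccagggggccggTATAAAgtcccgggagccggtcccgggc
Igfbp5: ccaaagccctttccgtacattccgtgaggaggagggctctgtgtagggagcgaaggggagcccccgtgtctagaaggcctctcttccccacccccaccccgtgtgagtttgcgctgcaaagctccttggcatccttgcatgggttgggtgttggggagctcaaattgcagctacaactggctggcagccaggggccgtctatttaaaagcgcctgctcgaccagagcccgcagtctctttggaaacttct
The Igfbp3 stretch held 2 overlapping matches that begin 32 and 30 bases before the start. Igfbp4 held 1 match 28 bases before its start, and Igfbp5 held none. The Igfbp5 stretch has the letters tatttaaa, which TATANA does not match. By the gene positions used here, Igfbp5 reaches to 72874884, beyond its RefSeq start, so the end of its stretch lies inside the gene. TATANA occurred in 22.6% of the 32851 RefSeq promoter stretches of this length. The letters GGGCGG, a GC box found in 32.7% of them, CACGTG, an E-box found in 6.02%, and AGAACA, a half-site of steroid receptors found in 16.1%, were absent from all 3 stretches on either strand. The GC content was 73.2% for Igfbp3, 69.2% for Igfbp4 and 58.8% for Igfbp5.

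The depth of the 6 samples ran from 15874251 to 28971508 reads on genes, the highest in lean mouse 2, where 30.7% of reads were mitochondrial against 19.5% to 24.4% elsewhere. Values below are the authors' normalized counts, which are reads divided by 1 size factor per sample. For the 9 members other than Igfbp2, between 111 and 20494 reads per sample stood behind a value. Counting error alone would give a spread of 0.886% of the mean for Igfbp5 and 7.51% for Igf1r, the extremes of these 9 genes. The SD between mice was larger for every 1 of them, from 6.24% to 52.1% of the mean in obese and from 3.55% to 22.2% in lean atria. Obese mouse 3 stood apart from the other 2 obese mice for several members. Its Igf1r value was the highest and its Igf1 value the lowest of all 6, and its Igfbp5 value lay within the lean range. The summed level of 6 atrial myocyte markers, Nppa, Myl7, Myl4, Sln, Bmp10 and Myh6, was 979987 normalized counts in that mouse, 559170 and 669678 in obese mice 1 and 2, and 864339 to 908095 in the lean mice. All 6 markers were expressed in each sample, and Myh6 and Nppa made up most of each sum. Sln did not set obese mouse 3 apart. It had 23714, 19693 and 19799 normalized counts in obese mice 1, 2 and 3, and 25151 to 27600 in the lean mice.

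**Figure D1:**
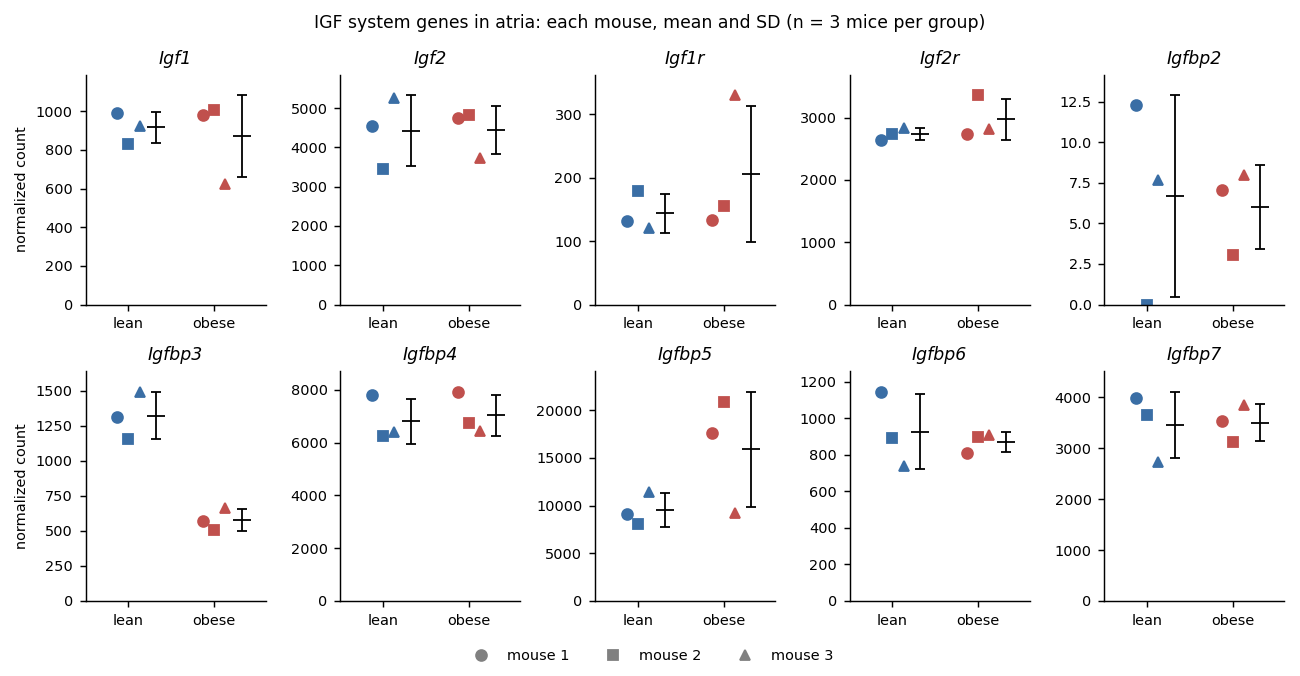
Normalized counts (y axis, from 0, with its own scale in each panel) of the 10 members in lean and obese atria. Each point is 1 mouse, its shape the mouse number, and the bar beside the points is the mean with its SD (n = 3 per group). The 3 obese mice lie between 506 and 662 for Igfbp3, all under the lean range of 1157 to 1493, while for the other 9 genes the groups overlap.

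Igfbp3 (ENSMUSG00000020427) lies on the minus strand of chromosome 11 of GRCm38 from 7206086 to 7213923, and no other annotated gene overlaps it. It had 573, 506 and 662 normalized counts in obese mice 1, 2 and 3. In lean mice 1, 2 and 3 it had 1316, 1157 and 1493. Every obese mouse was thus below every lean mouse, and the highest obese value was well under the lowest lean value. Obese atria averaged 580.2 ± 78.5 and lean atria 1322 ± 168 normalized counts (SD, n = 3 each). The log2 fold change, obese minus lean, came to -1.19 (standard error 0.14, 95% confidence interval from -1.50 to -0.87), and its adjusted p in limma was 0.009. The gene ranked 11 of 15275 by p. Igfbp3 kept an adjusted p under 0.05 in all 6 limma fits that left out 1 mouse, with log2 fold changes from -1.29 to -1.09. When limma was run with no variance trend, its adjusted p from limma rose to 0.135, a setting in which 0 of 15275 genes passed and 1717 had an unadjusted p under 0.05. In bulk tissue, fewer cells that make a transcript and less of it per cell cannot be told apart. The summed levels of 4 marker lists of other cell types lay higher in every obese than in every lean mouse, and for 2 of these lists that rested on 1 gene. The sum of 7 endothelial markers was 17435 to 18519 normalized counts in obese and 15010 to 15657 in lean atria, and that of 7 macrophage markers was 6628 to 7215 and 4949 to 6298. The sum of 8 pericyte and smooth muscle markers was 13564 to 14228 and 12134 to 13362, and that of 5 brown adipocyte markers was 2681 to 2726 and 1404 to 1657. Of the brown adipocyte markers, 2 of the 4 tested, Ucp1 and Cidea, had an adjusted p under 0.05 in limma, against 0.746% of all genes. In the endothelial, macrophage and pericyte lists 0 genes did, with 1, 3 and 0 at an unadjusted p under 0.05, against 12.2% of all genes. The pericyte and smooth muscle genes went both ways, 4 with a log2 fold change above 0 and 4 below it, with a median of 0.03. Leaving out the gene with the largest difference in each list, chosen after its values were seen, the pericyte list without Acta2 overlapped, at 9684 to 11364 in obese and 10190 to 10674 in lean atria. The endothelial list, in which 6 genes were above 0 and 1 below it, also overlapped without Pecam1, at 11419 to 12260 and 10904 to 11646. The macrophage list without C1qb (5121 to 5396 and 3939 to 4900) and the brown adipocyte list without Ucp1 (1935 to 2533 and 1336 to 1642) did not overlap. Most of that brown adipocyte sum was Ppargc1a, at means of 1646 in obese and 1242 in lean atria. The groups overlapped for Ppargc1a but not for Cidea and Dio2. The sums of the other marker lists overlapped between the groups. Among them, 8 fibroblast markers had 45003 to 46535 in obese and 43950 to 50633 in lean atria. For 6 epicardial markers the sums were 1429 to 2255 and 1428 to 2191. Schwann cell markers, at 476 to 695 and 667 to 855, had 5 of 5 genes with a log2 fold change below 0. Of these, 2 had an unadjusted p under 0.05 in limma, against 12.2% of all genes, and 0 passed after adjustment. Atrial myocyte markers had 5 genes below 0 and 1 above it, and ventricular myocyte markers 4 and 1. White adipocyte markers had 1 gene below 0 and 6 above it. No gene of the marker lists was at 0 in every sample. The part of these cell types in the fall of Igfbp3 was not tested.

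Across the 9 members tested, 1 passed an adjusted p under 0.05 in limma, against 0.746% of all 15275 genes, and 0.262% were called lower. The groups did not overlap for 1 of the 9, Igfbp3, against 18% of all genes tested, 9.17% lower and 8.86% higher in obese atria. An unadjusted p under 0.05 was found for 2, Igfbp3 and Igfbp5, against 12.2% of all genes, and with 9 genes these shares describe the members only. The median log2 fold change of the 9 was 0.03, and that of all genes tested was 0.0049.

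**Figure D2:**
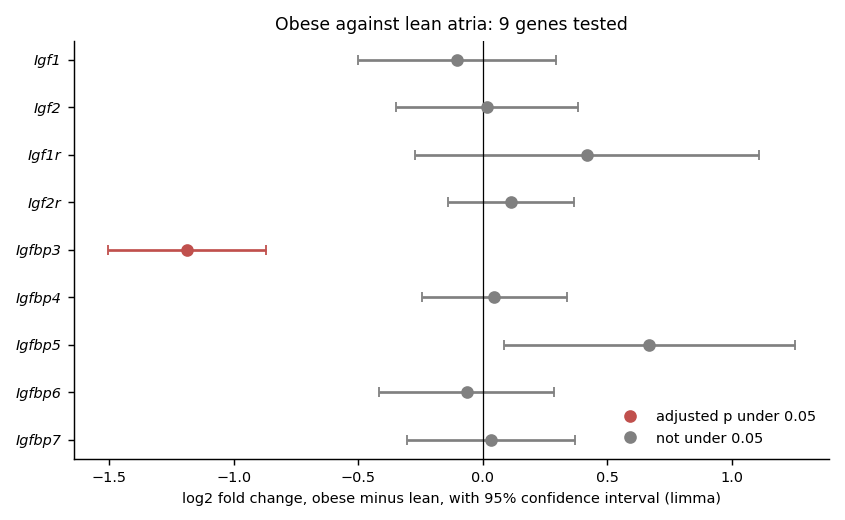
Log2 fold change, obese minus lean (x axis), of the 9 members tested, with the 95% confidence interval from limma. Red marks an adjusted p under 0.05. The interval of Igfbp3 runs from -1.50 to -0.87, that of Igfbp5 from 0.08 to 1.25, and those of the other 7 include 0.

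Igfbp5 (ENSMUSG00000026185), on the minus strand of chromosome 1 from 72857932 to 72874884, had the highest normalized counts of the members. It had 17588, 20900 and 9199 in obese mice 1, 2 and 3. In the lean mice it had 9067, 8089 and 11463. Obese mice 1 and 2 lay above every lean mouse, and obese mouse 3 lay among the lean mice. Obese atria averaged 15896 ± 6031 and lean atria 9540 ± 1736 (SD, n = 3 each). In limma the difference was 0.67 on the log2 scale (standard error 0.26, adjusted p = 0.339). The call depends on obese mouse 3 and on the test. Without that mouse the log2 fold change was 1.02 with an adjusted p of 0.0106 from limma, in a fit in which 2.08% of all genes were called. A DESeq2 Wald test on reads recovered from the values, which called 3.16% of genes, gave Igfbp5 an adjusted p of 0.0363, while edgeR's quasi-likelihood test, which called 0.57%, gave 0.293. In the lean atria Igfbp5 held 6.89 to 7.68 times the normalized counts of Igfbp3, and in the obese atria 30.7, 41.3 and 13.9 times. This ratio was picked after the values of both genes were seen, so it has no test.

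Igfbp4, Igfbp6 and Igfbp7 did not pass. Igfbp4, a binding protein that restrains IGF action until the protease PAPP-A cuts it, had 7923, 6726 and 6446 normalized counts in obese and 7793, 6245 and 6407 in lean mice. Both groups had 1 high mouse and 2 lower ones, and they overlapped throughout. Its log2 fold change was 0.05, with a 95% confidence interval from -0.24 to 0.34. Igfbp6, which binds IGF2 in preference to IGF1, had 810, 898 and 909 in obese and 1145, 894 and 739 in lean mice. The obese values lay inside the wider lean range, and the interval of its log2 fold change ran from -0.42 to 0.29. Igfbp7, a member that binds IGFs weakly and is rich in vessels, had 3531, 3118 and 3838 in obese and 3978, 3657 and 2719 in lean mice. Again the obese values lay inside the lean range, with an interval from -0.31 to 0.37. The exons of Igfbp7 share bases with Polr2b on the opposite strand. The libraries were made with a directional kit, but the counting is not stated to use strand, so reads there cannot be assigned with certainty. Igfbp2, a major binding protein of the blood, had a mean of 6.33 normalized counts, under the minimum of 10, and was not tested. Its reads were 7, 3 and 7 in obese and 11, 0 and 7 in lean mice, and the 0 reads of lean mouse 2 allow up to 2.05 normalized counts by counting error. Igfbp2 was low in both groups, with means of 6.01 in obese and 6.66 in lean mice, and so few reads cannot show a small difference.

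To compare levels between genes, normalized counts were divided by the exon length of each gene. That length is the union of all annotated exons and can exceed the transcript expressed, so orders and ratios per kb are approximate. In lean atria the order per kb was Igfbp7, Igfbp5, Igfbp4, Igfbp6, Igf2, Igfbp3, Igf2r, Igf1, Igf1r and Igfbp2, from 2855 ± 541 for Igfbp7 to 3.6 ± 3.37 for Igfbp2 (SD, n = 3). Neighbours whose ranges over the 3 lean mice overlapped were Igfbp5 with Igfbp4 and Igfbp6 with Igf2. In obese atria the first 5 places held the same genes in the same order, with Igfbp7 at 2891 ± 299 and Igfbp5 at 2647 ± 1004 (SD, n = 3), whose ranges now overlapped. The ranges of Igfbp5 and Igfbp4 and of Igfbp6 and Igf2 also overlapped there. Igfbp3 and Igf2r had changed places. The level per kb of Igfbp3 was 370 to 477 in the lean mice, above the 283 to 304 of Igf2r in each of them. In the obese mice Igfbp3 was at 162 to 212 per kb, below the 295 to 361 of Igf2r in each.

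Summed over Igfbp2 to Igfbp7, the 6 binding proteins had 30431, 32151 and 21062 normalized counts in obese and 23312, 20042 and 22829 in lean mice. The sum was highest in obese mice 1 and 2, while obese mouse 3 lay within the lean range. On the log2 scale the means were 14.7 ± 0.33 and 14.4 ± 0.12 (SD, n = 3 each), with p = 0.3 by an exact permutation test (two-sided), where 0.1 is the lowest this design can reach. Without obese mouse 3 the difference of 0.32 became 0.51, and divided by length it was 0.16. Igfbp3 made up 1.88%, 1.57% and 3.14% of that sum in obese mice 1, 2 and 3. Its share in lean mice 1, 2 and 3 was 5.64%, 5.77% and 6.54%, so each lean mouse was above each obese mouse. The mean shares of 2.20% ± 0.83 and 5.99% ± 0.48 (SD, n = 3 each) gave p = 0.1 by the same exact permutation test. The share is built from the Igfbp3 values, whose groups were already apart, so this p adds no support beyond them. Divided by length, the share was 1.89% to 2.94% in obese and 5.24% to 7.06% in lean mice. On that per-length scale Igfbp5 held 21.3% to 40.7% of the sum in obese and 18.8% to 28.3% in lean atria, and Igfbp7 held 30.1% to 44.1% and 33.3% to 43.5%.

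**Figure D3:**
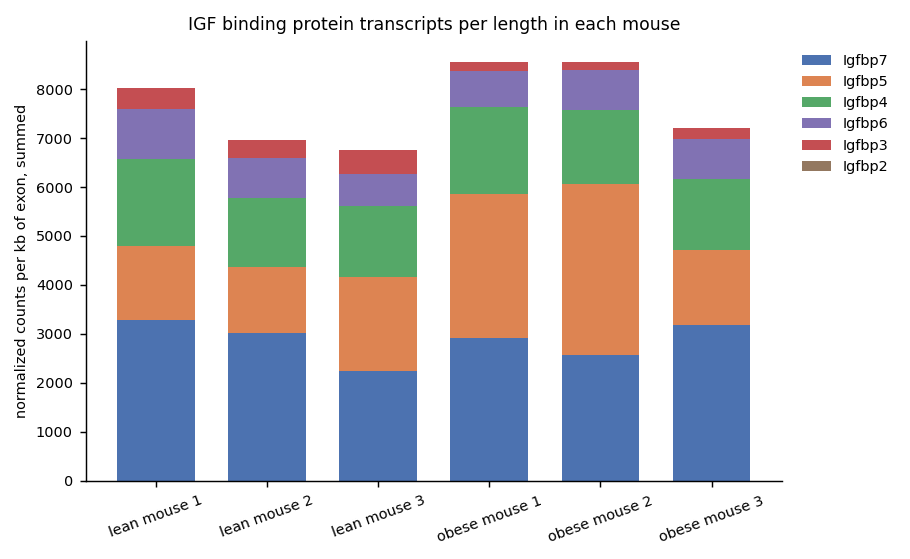
Stacked bars of the normalized counts per kb of exon (y axis, from 0) of Igfbp2 to Igfbp7 in each mouse. The red band of Igfbp3 is 5.24% to 7.06% of the bar in the lean mice and 1.89% to 2.94% in the obese mice, and Igfbp2 is too low to be seen.

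The ligands did not pass the test. Igf1 (ENSMUSG00000020053, chromosome 10, plus strand, 87858265 to 87937042) had 978, 1006 and 626 normalized counts in obese and 992, 832 and 925 in lean mice. Obese mouse 3 was the lowest of all, and the other 2 obese mice lay at the top of the lean range or just above it. Its log2 fold change was -0.10, with a 95% confidence interval from -0.50 to 0.29, and it was 0.12 without obese mouse 3. Igf2 (ENSMUSG00000048583, chromosome 7, minus strand, 142650766 to 142666816) had 4757, 4824 and 3730 in obese and 4553, 3456 and 5247 in lean mice. All 3 obese values lay inside the lean range. The log2 fold change was 0.02, with an interval from -0.35 to 0.38. Exons of Igf2 share bases with the antisense transcript Igf2os and with Gm49394 on the same strand, so its reads carry that uncertainty. Per kb of exon, Igf2 stood at 8.30 to 10.3 times Igf1 in obese and 7.19 to 9.82 times in lean atria, and those ranges overlapped.

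The receptors did not pass either. Igf1r (ENSMUSG00000005533, chromosome 7, plus strand, 67952859 to 68226780) had 134, 155 and 329 normalized counts in obese and 131, 179 and 121 in lean mice. Obese mouse 3 alone was high, and obese mice 1 and 2 lay within the lean range. The log2 fold change was 0.42 with an interval from -0.27 to 1.11, and without obese mouse 3 it was 0.02. Igf2r (ENSMUSG00000023830, chromosome 17, minus strand, 12682406 to 12769664) had 2743, 3356 and 2812 in obese and 2635, 2738 and 2829 in lean mice. Its lean values differed little, and only obese mouse 2 lay above them. The interval of its log2 fold change ran from -0.14 to 0.37. The antisense transcript Airn overlaps Igf2r but shares no exon bases with it, and had 116 to 132 normalized counts in obese and 115 to 171 in lean mice. Per kb, Igf2r stood at 15.4 to 39.1 times Igf1r in obese and 27.7 to 42.1 times in lean atria.

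**Figure D4:**
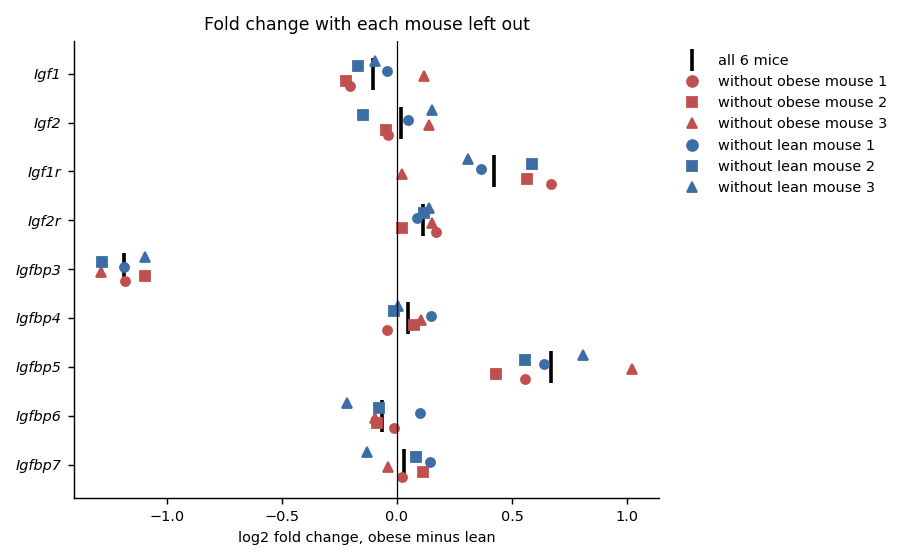
Log2 fold change, obese minus lean (x axis), of the 9 members tested with all 6 mice (black bars) and with each mouse left out (red for an obese, blue for a lean mouse, the shape for its number). Igfbp3 stays between -1.29 and -1.09, Igfbp5 runs from 0.43 to 1.02, and Igf1r runs from 0.02 to 0.67.

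Around these members, 61 other genes of the pathway were listed in 8 groups, and 53 had enough counts to be tested. Of the 53, 1 passed an adjusted p under 0.05 in limma, higher in obese atria, and 0 passed lower, against 0.484% and 0.262% of all genes. An unadjusted p under 0.05 was found for 13, 7 higher and 6 lower, against 12.2% of all genes. The groups did not overlap for 14 of the 53, against 18%. The median log2 fold change of the 53 was 0.05.

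The gene that rose was Igf2bp2, 1 of 7 tested genes of Igf2 mRNA binding and imprinted growth control. Igf2bp2, a protein that binds Igf2 mRNA and other mRNAs, had 328, 336 and 391 in obese and 196, 112 and 158 in lean mice. Its groups did not overlap, and the log2 fold change was 1.21 (standard error 0.21, limma, adjusted p = 0.0315). It lost the call without obese mouse 1 or 2 or lean mouse 2 or 3, with an adjusted p of 0.0746 to 0.125. Igf2bp1 and Igf2bp3, its relatives, stayed under the minimum, with 0 to 6.84 normalized counts in every mouse. The 5 tested matrix and cell surface partners of the binding proteins had 0 genes at an unadjusted p under 0.05. The smallest p among them belonged to Lrp1, an endocytic receptor, and Fn1, fibronectin, with log2 fold changes of 0.29 and 0.14 (limma, adjusted p = 0.452 and 0.733).

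Among the 7 tested proteases of IGF binding proteins and their inhibitors, 3 had an unadjusted p under 0.05, all higher. Of all genes, 12.2% had such a p in either direction. After adjustment, 0 of the 7 passed. Stc1, stanniocalcin 1, an inhibitor of PAPP-A, had 349, 247 and 131 normalized counts in obese and 58.2, 101 and 77.6 in lean mice. The groups did not overlap, and the log2 fold change was 1.53 (limma, adjusted p = 0.0741). Without obese mouse 3 it was 1.91, with an adjusted p of 0.00747 from limma in a fit that called 2.08% of all genes, and without any 1 of the other mice the adjusted p was 0.145 to 0.244. Adamts1, a metalloprotease, had 763, 853 and 1407 in obese and 469, 518 and 691 in lean mice, again without overlap, and a log2 fold change of 0.81 (limma, adjusted p = 0.143). With mice of the same number taken as a block, its adjusted p from limma was 0.0285.

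Of the other carriers, Igfbpl1, an IGFBP-like protein, had 98.4, 74.4 and 127 normalized counts in obese and 153, 162 and 176 in lean mice. Its groups did not overlap, and its log2 fold change was -0.74 (limma, adjusted p = 0.183). Igfals, the acid-labile subunit that joins IGFBP3 and IGF in a ternary complex in the blood, had 3.01 to 8.16 in obese and 5.47 to 23.3 in lean mice and was not tested. Igfbp1, a liver binding protein, had 0 reads in all 6 samples.

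The 12 tested receptor partners and adaptors had 2 genes higher and 2 lower at an unadjusted p under 0.05, against 12.2% of all genes. After adjustment in limma, 0 of them passed. Ptpn11, the phosphatase SHP2, had 5776, 7033 and 4861 normalized counts in obese and 3767, 3440 and 3841 in lean mice. The groups did not overlap, and the log2 fold change was 0.66 (limma, adjusted p = 0.0657). It was 0.79 without obese mouse 3, with an adjusted p of 0.0106 from limma, and without any 1 of the other mice the adjusted p was 0.14 to 0.279. Grb14, an adaptor that inhibits the insulin receptor, had 1604, 1362 and 1362 in obese and 1875, 2126 and 2120 in lean mice, lower in each obese mouse, with a log2 fold change of -0.50 (limma, adjusted p = 0.0862). DESeq2, which called 3.16% of all genes, called 3 genes of this list, Ptpn11 (adjusted p = 0.000562), Grb14 (adjusted p = 0.00923) and Grb2, an adaptor of receptor tyrosine kinases (adjusted p = 0.0407). Elsewhere in the pathway it called Stc1 (adjusted p = 0.000216), Adamts1 (adjusted p = 0.0084), Cdkn1c (adjusted p = 0.0491) and Igf2bp2 (adjusted p = 4.83e-05).

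The 6 genes of the growth hormone axis, which drives Igf1 in liver, had 0 called after adjustment. At an unadjusted p under 0.05 there was 1 gene, lower in obese atria, against 12.2% of all genes in either direction. That gene was Stat5a, with 642, 742 and 551 normalized counts in obese and 878, 716 and 890 in lean mice, overlapping groups and a log2 fold change of -0.36 (limma, adjusted p = 0.354). Socs2, a feedback inhibitor of growth hormone signaling, had a log2 fold change of -0.16 (limma, adjusted p = 0.671). Among the 8 IGFBP-related proteins, which carry a domain like that of the binding proteins, Kazald1 had 341, 295 and 241 in obese and 425, 395 and 356 in lean mice. Its groups did not overlap, and its log2 fold change was -0.43 (limma, adjusted p = 0.305). Ccn3 had 358, 292 and 141 in obese and 207, 94.4 and 115 in lean mice, overlapping groups and a log2 fold change of 0.90 (limma, adjusted p = 0.351). The 7 genes of mannose 6-phosphate sorting, partners of IGF2R in its lysosomal role, had 0 genes at an unadjusted p under 0.05. The smallest p there belonged to Nagpa and Gga2, with log2 fold changes of 0.28 and -0.18 (limma, adjusted p = 0.508 and 0.576).

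**Figure D5:**
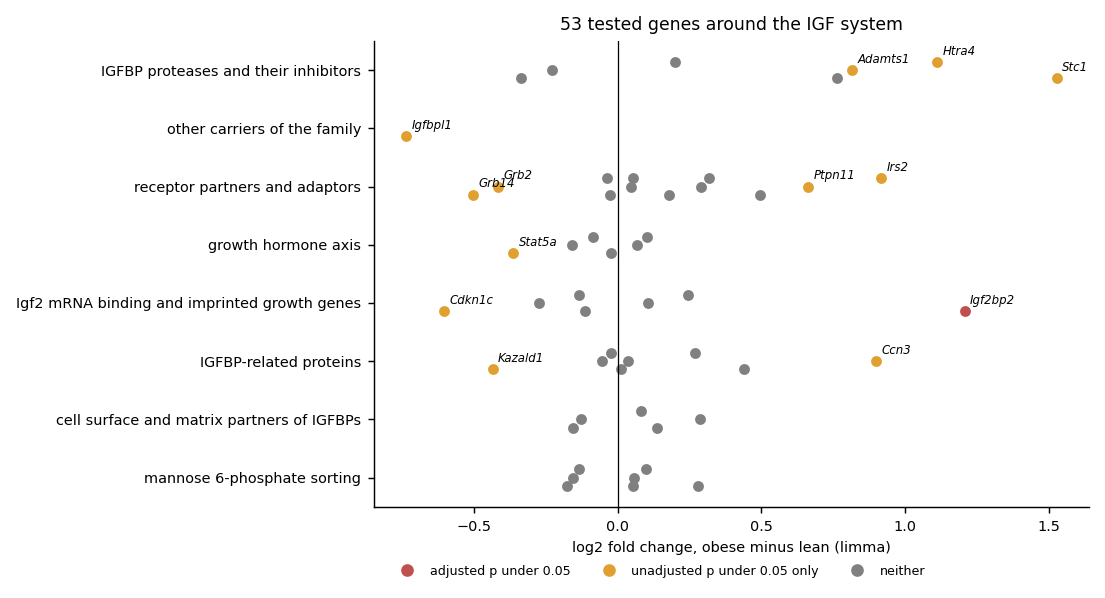
Log2 fold change, obese minus lean (x axis), of the 53 tested genes around the IGF system, 1 point per gene, by group. Red marks the gene with an adjusted p under 0.05, Igf2bp2 at 1.21, orange the 12 others with an unadjusted p under 0.05, and grey the rest.

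The 3 tested genes whose values over the 6 mice lay nearest to those of Igfbp3 were Shd, 1810021B22Rik and Sfrp5. Nearness was the root mean square distance of log2 values, each gene centred on its own mean. It was 0.11 for Shd, 0.14 for 1810021B22Rik and 0.14 for Sfrp5, where the median of all genes tested was 0.66. The log2 values of Igfbp3 itself had an SD of 0.67 over the 6 samples. A gene that does not vary thus also lies far from Igfbp3, and the median mostly reflects the size of its own change. Shd, an adaptor with an SH2 domain, had 41.2, 41.8 and 44.3 normalized counts in obese and 91.8, 89 and 99.5 in lean mice. Sfrp5, a secreted Wnt inhibitor, had 1016, 815 and 1131 in obese and 2650, 1818 and 3018 in lean mice, with a log2 fold change of -1.32 (limma, adjusted p = 0.0171). It lost the call without obese mouse 2 or lean mouse 1 or 3, with an adjusted p of 0.0588 to 0.0769. Shd and 1810021B22Rik had adjusted p values of 0.0591 and 0.0741 from limma. In the 3 genes, as in Igfbp3, each obese mouse was below each lean mouse, a pattern that the choice by nearness selects for.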

How the data were processed

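RNA-seq of 6 atrial samples was processed by the authors with STAR (single-end reads on GRCm38, unique alignments only), Salmon for gene assignment and DESeq2. Tool versions are not given in the sources used here. The deposited signal is a normalized count, the reads of a gene over a DESeq2 size factor of the sample. The authors also deposited their own comparison as a log2 fold change with a standard error, a Wald score, a ranking score, a p-value and an adjusted p-value, and none of these was used.

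Obese and lean samples were tested by limma 3.58.1 (R 4.3.3) with its variance trend, on the scale log2(normalized count + 1). The 15275 genes whose mean over the samples reached 10 entered, and Benjamini-Hochberg adjustment ran over all of them. Fold changes on that scale understate the change of low genes. Dividing each sample by its smallest value above 0 returned whole reads (tolerance 0.01) for 100% of values, and these were tested with edgeR 4.0.16 and DESeq2 1.42.0 as alternatives. Limits from reads use 3 reads and cover counting error only. Gene positions are those in the deposited table. Lengths are the union of the exons of each gene in GENCODE for GRCm38, which matched 42462 of 43432 gene identifiers (97.8%). The 1 row without a name held 0 reads. Sums and shares were compared by a two-sided exact permutation test. The tests were tested on simulated data. An item of the pathway lists is not reported here. The members, lists and tests were chosen with earlier results of these data known. Genes named are all 10 members, the 3 genes nearest to Igfbp3, the other carriers, and in each pathway list those with an adjusted p under 0.05 or else the 2 with the smallest p.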

Additional observations from a re-analysis of the deposited data

How the results depend on the processing

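Igfbp3 kept its direction and call in 9 of 10 alternative fits and in the 6 fits with a mouse left out, with log2 fold changes from -1.29 to -1.09. Without a variance trend its log2 fold change of -1.19 had an adjusted p of 0.135 from limma. The numbers of members, pathway genes and all genes with an adjusted p under 0.05 were 1, 1 and 114 in limma with the trend, 0, 0 and 0 without it (1717 genes at an unadjusted p under 0.05), and 2, 7 and 483 by DESeq2, whose second member was Igfbp5. edgeR gave 1, 1 and 87 with TMM scaling. With each mouse left out they ranged from 1 to 2, from 0 to 3 and from 14 without lean mouse 2 to 318 without obese mouse 3. The number of members with an unadjusted p under 0.05, 2 in the fit with all mice, was 1 with quantile normalization or without the variance trend, and 1 to 2 with a mouse left out. The log2 fold change of Igf2 turned to -0.012 with quantile normalization. With each mouse left out, Igf2 ranged from -0.15 to 0.15, Igf1 from -0.22 to 0.12, Igfbp4 from -0.042 to 0.15, Igfbp6 from -0.22 to 0.10 and Igfbp7 from -0.13 to 0.14, so the sign of these 5 is not determined. The difference in the share of Igfbp3 ranged from -4.26 to -3.47 percentage points and that of the log2 sum of the binding proteins from 0.20 to 0.51 with each mouse left out. The median log2 fold change of all genes stayed between -0.02 and 0.01 in every fit.

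Deviations from the group means correlated at 0.12, -0.03 and -0.0039 for mice 1, 2 and 3 of the 2 diets. Obese mouse 1 correlated best with its own number, and obese mice 2 and 3 did not. With 3 samples per group, these values cannot decide whether samples of the same number are paired. With the replicate number as a block, 157 genes had an adjusted p under 0.05 in limma, the log2 fold change of Igfbp3 stayed at -1.19 (adjusted p = 0.00288), and the pathway genes called were 2, Igf2bp2 and Adamts1. For the sum and the share of the binding proteins, the differences within same-numbered pairs equal those without the block. They were 0.32 on the log2 scale and -3.79 percentage points, with exact p values of 0.5 and 0.25. The lowest that 3 pairs allow is 0.25, and the p of the share adds no support beyond the Igfbp3 values. Depth limits Igfbp2, Igfals, Igf2bp1 and Igf2bp3, which had too few reads to be tested.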

Other observations

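The 6 genes with values given here were picked after those values were seen. The imprinted transcript H19, the neighbour of Igf2, had 7412, 5006 and 4037 normalized counts in obese and 4442, 4168 and 4855 in lean mice, its log2 fold change being 0.25 (limma, adjusted p = 0.663). Obese mouse 1 was the highest and obese mouse 3 the lowest of all. Cdkn1c, an imprinted growth inhibitor, had 217, 228 and 184 in obese and 347, 310 and 299 in lean mice, without overlap, and a log2 fold change of -0.60 (limma, adjusted p = 0.11). Irs2, an adaptor of the insulin and IGF1 receptors, had 97.4, 163 and 288 in obese and 73.9, 94.4 and 96.2 in lean mice, also without overlap, and a log2 fold change of 0.92 (limma, adjusted p = 0.301).

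Ccn1 and Ccn2, matricellular proteins that share a domain with the binding proteins, were highest in obese mouse 3, the mouse whose Igf1r, Igf1 and Igfbp5 values departed from those of the other obese mice. Ccn1 had 2405 normalized counts there, 454 and 444 in obese mice 1 and 2, and 548 to 1270 in the lean mice. Ccn2 had 14570 there, 6166 and 7547 in obese mice 1 and 2, and 5333 to 7522 in the lean mice. Myl7, an atrial light chain and a member of the atrial myocyte list, had 58765 there, 31186 and 27168 in obese mice 1 and 2, and 56346 to 60190 in the lean mice. The markers of that list did not all set obese mouse 3 apart, as given above for Sln.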
